A study of Homo sapiens with 12 samples.

Results

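In HT-29 cells, the trigger of necroptosis was given with and without the RIPK1 inhibitor Nec-1s. With it, 36 genes, 33 of them protein coding, had a higher mean RNA level than in either vehicle-treated or necroptotic cells. They were selected on the group means themselves: a mean of at least 40 normalised reads with TSZ+Nec-1s, at least 1.6 times the DMSO mean and over 1.6 times the TSZ mean. Of the 26485 genes in the files, 10137 reached a TSZ+Nec-1s mean of 40, and 39 met all 3 conditions. CXCL10, UBD and ABCG1 were then left out by name, as was VCAM1, which did not meet them. A normalised read is a read count divided by the size factor of its library. The comparisons of TSZ+Nec-1s with DMSO and with TSZ are therefore given as descriptions with no test.

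The line HT-29 was derived from a human colon adenocarcinoma. It was studied after 8 h of treatment in 4 groups of 3 libraries: DMSO as the vehicle, TNFα at 10 ng/ml, TSZ, which combines TNFα at the same dose with zVAD (20 μM) and SM-164 (50 nM), and TSZ+Nec-1s, in which Nec-1s was added at 10 μM. The Smac mimetic SM-164 antagonises IAP proteins, zVAD inhibits caspases broadly and Nec-1s blocks the kinase activity of RIPK1. TSZ+Nec-1s differs from TNFα alone in 3 agents at the same time, so their separate contributions cannot be told apart, and a group with Nec-1s alone was not analysed here. All groups come from 1 cell line, and the labels do not tell whether replicate libraries stem from separate cultures, so p-values measure a spread that may be technical.

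TNFα binds its receptor TNFR1, where RIPK1 and ubiquitin ligases of the IAP family assemble a complex that activates NF-κB and MAPK signalling. When IAPs and caspases are both blocked, RIPK1 instead activates RIPK3, which phosphorylates MLKL, and the cell dies by necroptosis with loss of membrane integrity. With Nec-1s the cells carry the same ligand, Smac mimetic and caspase inhibitor but RIPK1 kinase is blocked. Epithelial cells also express genes of innate defence, such as cytosolic RNA sensors, interferon-induced proteins and complement factors, and some members are of these kinds, while 26 of the 36 stood on none of the gene lists used. In bulk RNA, fewer cells of a kind and less RNA per cell cannot be told apart.

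The files give the mean of each group, from which whole reads were recovered for each library. The letters a, b and c only name the libraries of a group and pair none across groups. The 12 libraries held an estimated 8828776 to 12730029 reads. The epithelial markers EPCAM, CDH1 and KRT19 were at or above 3212 normalised reads in every group mean. Of the other genes on the colon epithelium list, LGALS4, KRT20, TSPAN8 and VIL1 were at or above 639 in every group mean. CEACAM5 ranged from 23.0 to 109 by group mean, whereas CDX2 and CDH17 stayed at or below 6.77. PTPRC, the pan-leukocyte surface marker, had no read, and 5 of the 14 leukocyte markers were at 0 in all libraries. The summed leukocyte list, which includes the member ITGAM, ranged from 222 to 263 normalised reads with DMSO, from 338 to 397 with TNFα, from 636 to 759 with TSZ and from 407 to 414 with TSZ+Nec-1s. The summed fibroblast and endothelium list ranged from 64.1 to 211 with DMSO, from 51.0 to 71.1 with TNFα, from 213 to 503 with TSZ and from 47.4 to 60.8 with TSZ+Nec-1s, where TNFα and TSZ+Nec-1s overlapped.

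Some libraries stood apart in ways that touch these genes. RMRP and RN7SK, both short RNAs made by RNA polymerase III that carry no polyA tail, met the conditions through library b of TSZ+Nec-1s. RMRP, the RNA of the RNase MRP ribonucleoprotein, had 1.01, 188 and 3.95 normalised reads in the TSZ+Nec-1s libraries and 67.1, 0 and 0.93 in the TNFα libraries. RN7SK, which holds the elongation factor P-TEFb inactive, had 1.01, 459 and 9.49 with TSZ+Nec-1s, 169, 4.81 and 10.3 with TNFα and 52.4, 70.0 and 37.7 with TSZ. Other RNAs of this kind, looked up after these values were seen, were also high in that library: RPPH1, the RNA of RNase P, had 2.01, 64.2 and 0 normalised reads with TSZ+Nec-1s. RN7SL1, an RNA of the signal recognition particle, had 80.5, 289 and 48.2 with TSZ+Nec-1s but also 212 in library b of TSZ. Without library b of TSZ+Nec-1s the ratio of RMRP to the larger of the DMSO and TSZ means was 0.73 and that of RN7SK 0.098, so both leave the set together with ACTRT3 and SIX5.

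**Figure D1:**
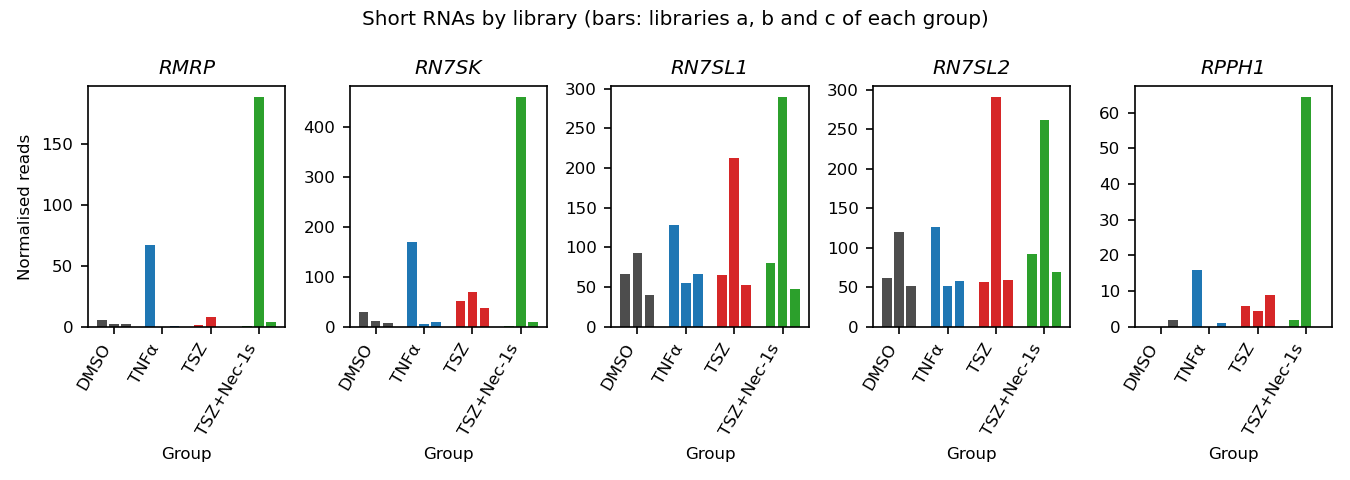
Normalised reads (y axis, linear from 0) of 5 short RNAs without a polyA tail, with 1 bar for each library and libraries a, b and c in order within each group. In RMRP, RN7SK and RPPH1 the highest bar is library b of TSZ+Nec-1s, and the next is library a of TNFα.

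GC content separated other libraries. Within their group, library b of DMSO (Spearman rho -0.79 across 11524 genes), library c of TNFα (-0.59) and library c of TSZ (-0.74) held more reads of genes with low GC content, and these rho are descriptions across genes of 1 library. Against the mean of all 12 libraries, the 3 TSZ+Nec-1s libraries had rho of -0.46, -0.38 and -0.47, and only library b of DMSO lay lower among the 12, at -0.62. The members had a median transcript GC content of 44.01%, against 47.9% over the genes tested. NBN, the low-GC gene of the double-strand break sensor nibrin, had 301, 893 and 335 normalised reads with DMSO, 280, 281 and 686 with TSZ and 830, 747 and 872 with TSZ+Nec-1s, so that library b of DMSO exceeded all TSZ+Nec-1s libraries. Its ratio was 1.601 as selected, 1.5 with the GC trend removed and 2.57 without the 3 libraries. Of the 36 members, 29 met the conditions once the trend with GC content was taken out of every library, and 35 without the 3 libraries, an alternative added after the data were seen. Among those lost with the trend taken out were CD47, ELK3, FAM135A, IFIT5, NBN and SSPN. How far GC content contributes to the other differences was not tested.

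**Figure D2:**
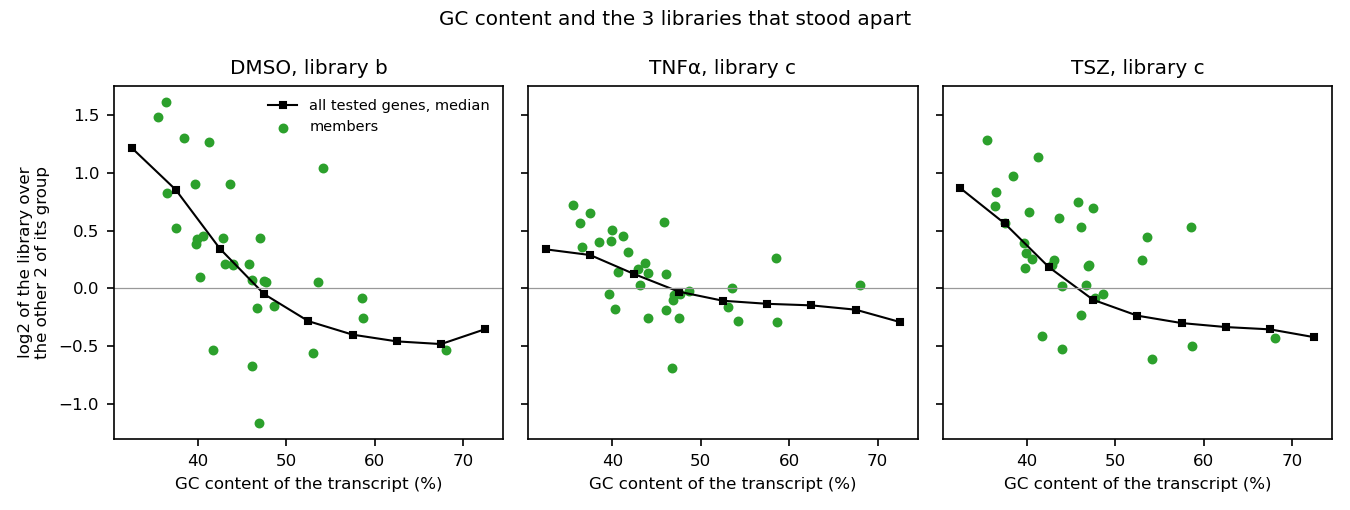
GC content of the transcript (x axis, %) against the log2 ratio of 1 library to the mean of the other 2 of its group (y axis, log2 of normalised reads + 1), for library b of DMSO, library c of TNFα and library c of TSZ. Green points are 32 members, without RMRP and RN7SK, and black squares the median of all tested genes in bins of GC content: the median falls from 1.22 at 30 to 35% GC to -0.48 at 65 to 70% GC in library b of DMSO, and from 0.87 to -0.36 in library c of TSZ.

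In 32 of the 36 members every TSZ+Nec-1s library lay above every DMSO and TSZ library, a share of 2.81% among the 11727 tested genes, whose mean was 10 reads or more, which the selection itself favours. Among the exceptions were RMRP, RN7SK and NBN. The ratio to the larger of the DMSO and TSZ means had a median of 1.98. SIX5 and NBN lay just inside the threshold, both at 1.601, followed by ELK3 at 1.63, and just outside it lay ZNF286A at 1.593, DDX60L at 1.588 and ZNF670 at 1.584. The mean level with TSZ+Nec-1s ran from 42.5 normalised reads in APOL3 to 983 in ANTXR2, with a median of 137. When each of the 9 libraries of DMSO, TSZ and TSZ+Nec-1s was left out in turn, 23 members met the conditions every time, and 21 of these also did so with the GC trend removed and without the 3 libraries that stood apart in it. Among the 13 that did not were ACTRT3, APOL3, CD47, CFB, ELK3, FAM135A, MINPP1, NBN, RMRP, RN7SK and SIX5.

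**Figure D3:**
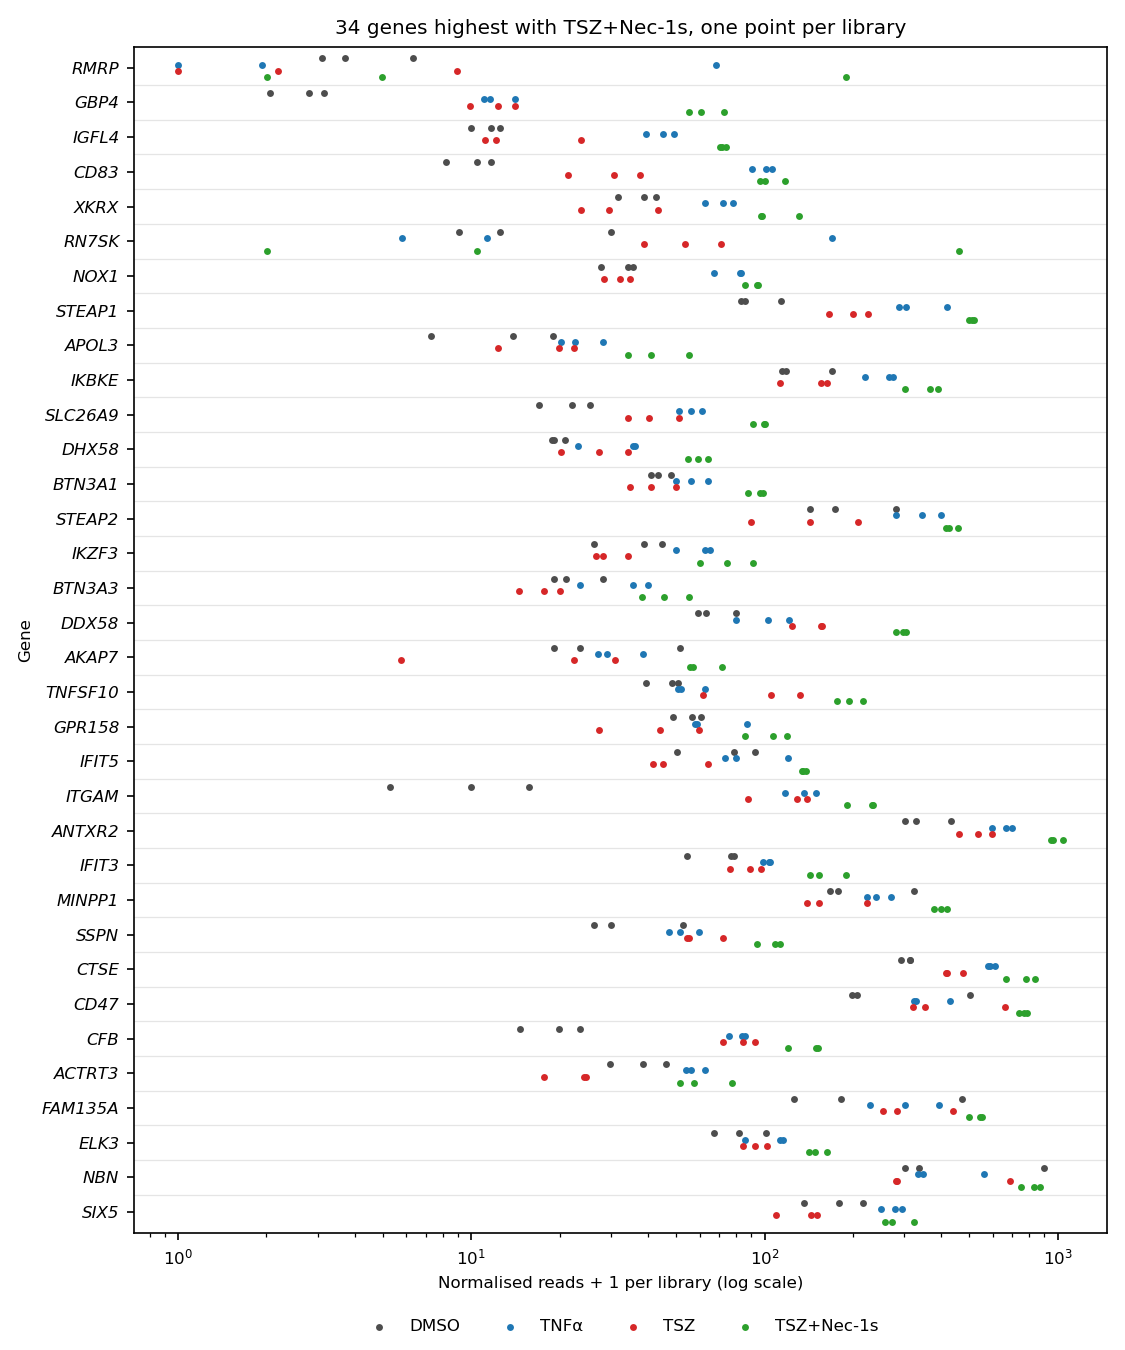
Normalised reads + 1 (x axis, log scale) of 34 of the members (rows, by falling ratio of the TSZ+Nec-1s mean to the larger of the DMSO and TSZ means), with 1 point for each library. In 31 rows the 3 green TSZ+Nec-1s points lie to the right of all DMSO and TSZ points, and in RMRP and RN7SK only 1 of them does.

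The members with a role in sensing RNA and in the interferon response were DDX58, DHX58, IFIT3, IFIT5, GBP4, APOL3, IKBKE and TNFSF10. DDX58, now named RIGI, encodes the helicase RIG-I that detects viral RNA in the cytosol. It had 62.0, 78.8 and 58.5 normalised reads with DMSO, 102, 78.9 and 121 with TNFα, 123, 155 and 156 with TSZ and 279, 296 and 302 with TSZ+Nec-1s. TSZ+Nec-1s was thus above all other libraries, and the TSZ libraries lay between. DHX58 encodes LGP2, a helicase of the same family that modulates RIG-I and MDA5. It stood at 18.2, 17.9 and 19.8 with DMSO, 35.0, 22.1 and 34.6 with TNFα, 26.2, 19.2 and 33.3 with TSZ and 58.3, 53.8 and 63.3 with TSZ+Nec-1s, where TNFα and TSZ overlapped.

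GBP4, an interferon-induced GTPase of the guanylate-binding family, had the largest ratio after RMRP. It counted 2.14, 1.05 and 1.80 normalised reads with DMSO, 10.0, 10.6 and 13.1 with TNFα, 13.1, 11.3 and 8.88 with TSZ and 54.3, 59.9 and 72.0 with TSZ+Nec-1s. TNFα and TSZ overlapped, and TSZ+Nec-1s was 5.60 times the TSZ mean. The DMSO values rest on 2, 1 and 2 reads, so its fitted change over DMSO depends on few reads. APOL3, an apolipoprotein L family member induced by interferon, was at 12.4 ± 5.9 with DMSO, 22.6 ± 4.0 with TNFα, 17.2 ± 5.3 with TSZ, against 42.5 ± 10.8 with TSZ+Nec-1s (mean ± SD, n = 3 each). Its TSZ+Nec-1s libraries held 54.3, 39.9 and 33.2, and without library a their mean fell under 40, which takes APOL3 out of the set.

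IFIT3 and IFIT5 encode interferon-induced tetratricopeptide proteins that act on foreign RNA. IFIT3 had 53.4, 75.7 and 77.4 normalised reads with DMSO, 103, 98.2 and 103 with TNFα, 75.0, 88.0 and 96.5 with TSZ and 189, 142 and 152 with TSZ+Nec-1s. IFIT5 had 49.2, 91.4 and 77.4 with DMSO, 72.1, 78.9 and 120 with TNFα, 44.03, 40.6 and 63.2 with TSZ and 138, 135 and 134 with TSZ+Nec-1s. Both genes were above all other libraries with TSZ+Nec-1s, but IFIT5 dropped out with the GC trend removed, at a ratio of 1.59. IFIT3 shares exon sequence with LIPA on the opposite strand, and the counting did not use strand.

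IKBKE encodes IKKε, the kinase that phosphorylates IRF3 and IRF7 downstream of the RNA sensors. It stood at 169, 118 and 113 with DMSO, 264, 273 and 220 with TNFα, 155, 163 and 112 with TSZ and 365, 390 and 299.7 with TSZ+Nec-1s. DMSO and TSZ covered the same range, TNFα lay above both, and TSZ+Nec-1s above TNFα. TNFSF10 encodes the death ligand TRAIL. It had 38.5, 47.3 and 49.5 with DMSO, 51.0, 61.6 and 49.5 with TNFα, 60.7, 104 and 131 with TSZ and 176, 193 and 216 with TSZ+Nec-1s, so TNFα and DMSO overlapped while all TSZ+Nec-1s libraries exceeded all others.

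The 250 bases before the annotated gene start were read for 26 members found in the RefSeq promoter table (GRCh38.p14) and searched on both strands for 4 motifs. The κB consensus was held by 5 of these 26, against 9.57% of 27305 promoters. The IRF motif GAAANNGAA was held by 4, against 7.06%, the GAS motif TTCNNNGAA by 2, against 6.78%, and the AP-1 motif TGANTCA by 1, against 6.60%. These matches are descriptions of letters, and no overlap between the motifs was found in the members. The κB consensus lay in GBP4, DDX58, STEAP2, MINPP1 and CFB, the IRF motif in TNFSF10, IFIT3, IFIT5 and CFB, the GAS motif in SSPN and CFB and the AP-1 motif in BTN3A3. The 6 defence genes with a κB or IRF match are shown because they carry the matches within the innate group, each 5′ to 3′ on the strand of the gene and ending at the base before its start, with matches in capitals.

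GBP4 (chr1:89198943-89199192, minus strand, κB consensus): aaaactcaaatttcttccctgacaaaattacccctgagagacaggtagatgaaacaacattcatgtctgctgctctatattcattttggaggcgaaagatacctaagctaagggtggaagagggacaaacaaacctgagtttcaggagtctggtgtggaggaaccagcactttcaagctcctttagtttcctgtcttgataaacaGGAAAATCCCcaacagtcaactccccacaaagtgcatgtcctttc

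DDX58 (chr9:32526197-32526446, minus strand, κB consensus): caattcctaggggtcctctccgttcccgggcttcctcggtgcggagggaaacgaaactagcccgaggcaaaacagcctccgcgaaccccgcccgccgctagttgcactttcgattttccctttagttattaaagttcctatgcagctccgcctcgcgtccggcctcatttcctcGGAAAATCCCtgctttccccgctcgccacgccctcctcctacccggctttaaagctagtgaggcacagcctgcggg

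CFB (chr6:31945845-31946094, plus strand, IRF motif, κB consensus and GAS motif in this order): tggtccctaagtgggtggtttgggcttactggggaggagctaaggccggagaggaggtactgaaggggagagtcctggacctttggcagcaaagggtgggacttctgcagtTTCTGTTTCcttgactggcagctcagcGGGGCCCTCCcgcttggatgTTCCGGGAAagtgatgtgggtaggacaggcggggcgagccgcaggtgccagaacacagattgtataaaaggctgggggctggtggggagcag

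TNFSF10 (chr3:172523431-172523680, minus strand, IRF motif in 2 places): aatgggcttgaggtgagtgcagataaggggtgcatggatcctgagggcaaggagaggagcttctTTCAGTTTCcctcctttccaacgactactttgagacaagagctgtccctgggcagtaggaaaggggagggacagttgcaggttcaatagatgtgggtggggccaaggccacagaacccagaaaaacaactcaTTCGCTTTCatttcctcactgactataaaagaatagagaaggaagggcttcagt

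IFIT3 (chr10:89327747-89327996, plus strand, IRF motif in 2 places): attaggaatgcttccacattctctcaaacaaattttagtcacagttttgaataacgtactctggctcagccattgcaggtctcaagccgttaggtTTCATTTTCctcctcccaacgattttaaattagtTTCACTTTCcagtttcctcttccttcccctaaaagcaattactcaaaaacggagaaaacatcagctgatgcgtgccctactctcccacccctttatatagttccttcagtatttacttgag

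IFIT5 (chr10:89414318-89414567, plus strand, IRF motif in 2 places): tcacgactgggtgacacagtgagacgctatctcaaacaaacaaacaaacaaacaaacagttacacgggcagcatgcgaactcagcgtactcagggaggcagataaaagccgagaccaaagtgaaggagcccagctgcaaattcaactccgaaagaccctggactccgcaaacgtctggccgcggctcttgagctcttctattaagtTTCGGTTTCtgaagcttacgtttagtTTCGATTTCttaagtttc

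In GBP4 and DDX58 the capitals spell the same 10 bases, GGAAAATCCC, starting 45 and 76 bases before the gene start. The IRF matches, read on the opposite strand, began 54 bases before the start in TNFSF10, 121 bases before it in IFIT3 and 18 bases before it in IFIT5 at their nearest. IFIT3 and IFIT5 lie 37.1 kb apart on chromosome 10 with IFIT1 between them. IFIT1 itself was at 34.0 with DMSO, 29.6 with TNFα, 40.7 with TSZ, against 41.1 with TSZ+Nec-1s, a ratio of 1.01.

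The immune surface and complement genes were CD83, CD47, BTN3A1, BTN3A3, ITGAM and CFB, with the lymphoid transcription factor IKZF3 beside them. CD83, a surface protein of activated antigen-presenting cells and an NF-κB target, had 10.7, 9.46 and 7.20 normalised reads with DMSO, 100.1, 105 and 89.7 with TNFα, 29.8, 20.3 and 36.6 with TSZ and 117, 99.0 and 95.7 with TSZ+Nec-1s. TNFα and TSZ+Nec-1s overlapped, and TSZ lay between them and DMSO. ITGAM, the integrin αM chain known from myeloid cells, had 4.28, 14.7 and 9.004 with DMSO, 135, 149 and 117 with TNFα, 138, 128 and 86.5 with TSZ and 233, 190.1 and 232 with TSZ+Nec-1s. It is on the leukocyte marker list, of which PTPRC was at 0 and CD14 had a mean of 80.8 with DMSO and 30.6 with TSZ+Nec-1s. Other genes of that list did not fall: CD68 peaked in TSZ at a mean of 550, against 154 for DMSO, 158 for TSZ+Nec-1s and 174 for TNFα. CD79A also peaked in TSZ, at 31.25, against 0.95 for DMSO and 2.04 for TSZ+Nec-1s. The TNFα and TSZ libraries of ITGAM overlapped, and those of TSZ+Nec-1s lay above all others.

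CFB encodes complement factor B of the alternative pathway. It had 22.4, 13.7 and 18.9 normalised reads with DMSO, 85.1, 82.8 and 74.7 with TNFα, 71.4, 83.5 and 92.1 with TSZ and 149, 119 and 151 with TSZ+Nec-1s, where TNFα and TSZ overlapped. Its exons overlap C2 on the same strand in the annotation, and it left the set when library a of TSZ was left out, at a ratio of 1.59. BTN3A1 and BTN3A3 encode butyrophilins of the family through which γδ T cells sense phosphoantigens, and lie 25.3 kb apart on chromosome 6. BTN3A1 had 47.0, 39.9 and 42.3 with DMSO, 63.1, 49.1 and 55.1 with TNFα, 48.8, 33.9 and 39.9 with TSZ and 95.6, 98.1 and 87.0 with TSZ+Nec-1s. BTN3A3 was at 21.7 ± 4.7, 32.0 ± 8.6, 16.4 ± 2.8 and 45.3 ± 8.6 in the same order of groups (mean ± SD, n = 3), and 1 of its TNFα libraries exceeded the lowest TSZ+Nec-1s library. The pair are close relatives, so reads shared between them are uncertain.

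CD47, the ligand that restrains phagocytosis through SIRPα, was at 198, 499 and 205 with DMSO, 327, 321 and 429 with TNFα, 320.1, 351 and 659 with TSZ and 766, 737 and 784 with TSZ+Nec-1s. Library b of DMSO and library c of TSZ were the high values of their groups, as in NBN, and CD47 had a ratio of 1.56 with the GC trend removed and 2.27 without the 3 libraries. IKZF3, the Ikaros family factor Aiolos, was at 35.6 ± 9.5 with DMSO, 58.3 ± 8.1 with TNFα, 28.6 ± 4.1 with TSZ, against 74.4 ± 15.5 with TSZ+Nec-1s (mean ± SD, n = 3).

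Epithelial enzymes, transporters and membrane proteins formed the next group. NOX1, the superoxide-producing NADPH oxidase of colon epithelium, had 26.7, 34.7 and 33.3 normalised reads with DMSO, 82.1, 66.4 and 81.3 with TNFα, 27.4, 33.9 and 31.1 with TSZ and 84.5, 93.8 and 93.3 with TSZ+Nec-1s. DMSO and TSZ covered the same range, and TNFα lay just below TSZ+Nec-1s. XKRX, an XK-related membrane protein, is its neighbour 39.1 kb away on the X chromosome, and had 41.7, 37.8 and 30.6 with DMSO, 71.1, 76.99 and 61.7 with TNFα, 28.6, 22.6 and 42.2 with TSZ and 96.6, 97.2 and 130.5 with TSZ+Nec-1s. Both genes thus had TNFα below TSZ+Nec-1s, with DMSO and TSZ overlapping at the bottom.

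STEAP1 and STEAP2, metalloreductase family proteins of the plasma membrane, are also neighbours, 2.8 kb apart on chromosome 7. STEAP1 had 84.4, 112 and 81.9 normalised reads with DMSO, 286, 303 and 418 with TNFα, 199.9, 165 and 225 with TSZ and 517, 507 and 497 with TSZ+Nec-1s. Its 4 groups did not overlap. STEAP2 was at 199 ± 73 with DMSO, 341 ± 60 with TNFα, 146 ± 59 with TSZ, against 431 ± 21 with TSZ+Nec-1s (mean ± SD, n = 3), so its TSZ mean lay below DMSO where that of STEAP1 lay above.

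SLC26A9, an epithelial chloride channel, CTSE, the aspartic protease cathepsin E, and IKBKE lie on chromosome 1 within positions 205913048 to 206496889 of hg38. SLC26A9 had 16.0, 21.02 and 24.3 with DMSO, 60.1, 50.0 and 55.1 with TNFα, 33.3, 39.5 and 49.9 with TSZ and 98.6, 90.3 and 99.6 with TSZ+Nec-1s. CTSE had 312, 312 and 289.9 with DMSO, 589, 609 and 579 with TNFα, 474, 415 and 418 with TSZ and 833, 668 and 777 with TSZ+Nec-1s. In both, the means were in the order DMSO, TSZ, TNFα and TSZ+Nec-1s. Of the tested genes between the 3, RAB7B reached a ratio of 1.40, whereas FAM72A was at 0.74 and SRGAP2 at 0.79.

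ANTXR2, the anthrax toxin receptor CMG2, drew the most reads of the members, which are not scaled by transcript length, with 299, 430 and 328 normalised reads with DMSO, 665, 598 and 697 with TNFα, 532, 460 and 594 with TSZ and 1039, 965 and 947 with TSZ+Nec-1s. SSPN, sarcospan of the dystrophin-associated complex, was at 35.2 ± 14.2, 51.7 ± 6.4, 59.6 ± 9.9 and 104 ± 9 in the same order (mean ± SD, n = 3), and shares exon sequence with BHLHE41 on the opposite strand. With the GC trend removed SSPN left the set, at a ratio of 1.525. IGFL4, a member of the IGF-like family, had 10.7, 11.6 and 9.004 with DMSO, 44.04, 48.1 and 38.3 with TNFα, 22.6, 10.2 and 11.1 with TSZ and 70.4, 69.5 and 72.8 with TSZ+Nec-1s, where DMSO and TSZ overlapped. GPR158, an orphan G protein-coupled receptor, was at 54.4 ± 6.2 with DMSO, 66.9 ± 16.5 with TNFα, 42.6 ± 16.3 with TSZ, against 103 ± 17 with TSZ+Nec-1s, and its highest TNFα library exceeded its lowest TSZ+Nec-1s library.

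The remaining members have varied functions. AKAP7, MINPP1 and FAM135A all had their highest DMSO value in library b. AKAP7, an A-kinase anchoring protein, had 18.2, 50.5 and 22.5 normalised reads with DMSO, 28.0, 26.0 and 37.4 with TNFα, 4.76, 21.4 and 29.95 with TSZ and 70.4, 54.7 and 56.1 with TSZ+Nec-1s. MINPP1, an inositol polyphosphate phosphatase, stood at 177, 322 and 166 with DMSO and 399, 377 and 417 with TSZ+Nec-1s. FAM135A had 125, 472 and 182 with DMSO, 300.3, 227 and 391 with TNFα, 281, 252 and 438 with TSZ and 549, 496 and 540.1 with TSZ+Nec-1s. In FAM135A the gap between the highest DMSO library and the lowest TSZ+Nec-1s library was small beside the DMSO range.

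ELK3, an ETS transcription factor, was at 82.4 ± 16.8 with DMSO, 104 ± 16 with TNFα, 92.0 ± 8.7 with TSZ, against 150.2 ± 10.8 with TSZ+Nec-1s (mean ± SD, n = 3). SIX5, a homeobox factor with the highest GC content of the members at 68.0%, was at 177 ± 40, 272 ± 23, 134 ± 22 and 283 ± 34 in the same order, and its TNFα and TSZ+Nec-1s libraries overlapped. ACTRT3, an actin-related protein of the testis, was at 37.1 ± 8.2, 56.6 ± 4.5, 21.2 ± 4.0 and 61.1 ± 13.5. In both, TSZ had the lowest mean. By mean, TSZ was above DMSO in 21 members and below it in 15, a description of values that the selection used.

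TNFα alone was set against DMSO to ask which members respond to the cytokine without SM-164, zVAD and Nec-1s. TNFα played no part in the selection, but the DMSO libraries were chosen low, which favours calls of higher with TNFα. Levels of 12 of the 36 members were higher with TNFα and those of none lower (limma, adjusted p under 0.05), where 3.12% of the 11727 tested genes were higher and 1.07% lower. No member was lower at an unadjusted p under 0.05 or in the fit without weights either. The 12 were ITGAM, CD83, GBP4, CFB, IGFL4, STEAP1, SLC26A9, NOX1, CTSE, IKBKE, XKRX and ANTXR2. The median log2 fold change of the members was 0.63, against 0.00 over all tested genes.

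The largest changes were those of ITGAM, at a log2 fold change of 3.91 ± 0.39 (SE, limma adjusted p 4.3e-05), and CD83, at 3.38 ± 0.29 (adjusted p 8.53e-06). They too rest on few DMSO reads: 4, 14 and 10 in ITGAM and 10, 9 and 8 in CD83. IGFL4 had 10, 11 and 10. With 1 library left out, the log2 fold change of ITGAM ran from 3.49 to 4.28. CFB (2.13 ± 0.24), IGFL4 (2.02 ± 0.29) and STEAP1 (1.85 ± 0.19) followed on the log2 scale, leaving aside GBP4, whose DMSO libraries held 2, 1 and 2 reads. The smallest of the called changes were in IKBKE, at 0.94 ± 0.19, XKRX, at 0.93 ± 0.24, and ANTXR2, at 0.91 ± 0.14. XKRX, with an adjusted p of 0.0448 in limma, lost its call in 9 of 12 fits that left out 1 library, and IKBKE lost it without library c of DMSO, library a of TNFα or library b of TNFα. The other 10 were called in all 12 of these fits. DDX58 at 0.59 ± 0.20 (adjusted p 0.139), IFIT3 at 0.57 ± 0.19 (adjusted p 0.136) and TNFSF10 at 0.25 ± 0.29 (adjusted p 0.741) were not called in limma, which does not show that TNFα left them at the DMSO level. With the GC trend removed 19 members were called higher, DDX58 (0.72, adjusted p 0.00719) and IFIT3 (0.64, adjusted p 0.0114) among them, and without the 3 libraries 18 were, which include neither. Calls of higher over all tested genes rose too, from 366 in the main fit to 863 with the GC trend removed and 827 without the 3 libraries.

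The comparison of TSZ+Nec-1s with TNFα asked whether the members stood higher with the full combination than with the cytokine alone. Here the TSZ+Nec-1s libraries were the ones chosen high. Levels of 8 members were higher with TSZ+Nec-1s and those of none lower (limma, adjusted p under 0.05), where 1.08% of tested genes were higher and 0.247% lower. At an unadjusted p under 0.05, 27 were higher and 0 lower. No share over all genes was taken at that threshold, so this count has no background to be judged against. The fit without weights called 3 members higher and 0 lower, against 89 higher and 17 lower of all tested genes at a pseudocount of 1. The 3 were GBP4, at a log2 fold change of 2.42 ± 0.25 (limma adjusted p 0.000401), TNFSF10, at 1.85 ± 0.23 (adjusted p 0.00138), and DDX58, at 1.56 ± 0.16 (adjusted p 0.000401). They were also the ones called in all 12 fits that left out 1 library.

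SSPN (1.01 ± 0.21 on the log2 scale), SLC26A9 (0.80 ± 0.17), CFB (0.78 ± 0.16), BTN3A1 (0.75 ± 0.16) and ANTXR2 (0.59 ± 0.13) were the other 5 called with weights. Each lost its call in 7 to 10 of the 12 left-out fits. Their adjusted p in these fits reached 0.186 in SSPN, 0.178 in SLC26A9, 0.181 in CFB, 0.21 in BTN3A1 and 0.199 in ANTXR2. Calls of higher over all tested genes fell too, from 127 to between 47 and 63 without any 1 library of TNFα or TSZ+Nec-1s. They numbered 90 without library c of DMSO, 101 without library a and 95 without library b of TSZ. Without library a of DMSO they rose to 140, and without library c of TSZ to 183. Without library b of DMSO, which is in neither group but enters the shared estimate of spread, 21 members were called higher. With the GC trend removed 17 were called, and without the 3 libraries 28. Calls over all tested genes rose as well. They numbered 127 higher in the main fit, 668 without library b of DMSO, 380 with the GC trend removed and 2585 without the 3 libraries. In 28 of the 36 members all TSZ+Nec-1s libraries exceeded all TNFα libraries, where 21.8% of tested genes did so. At the other end, RN7SK was at -0.04 ± 1.63 on the log2 scale, with the library spread given above, and the next lowest were CD83, at 0.07 ± 0.16, SIX5, at 0.05 ± 0.16, and ACTRT3, at 0.09 ± 0.21, whose means with TSZ+Nec-1s were 1.06, 1.04 and 1.08 times those with TNFα.

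**Figure D4:**
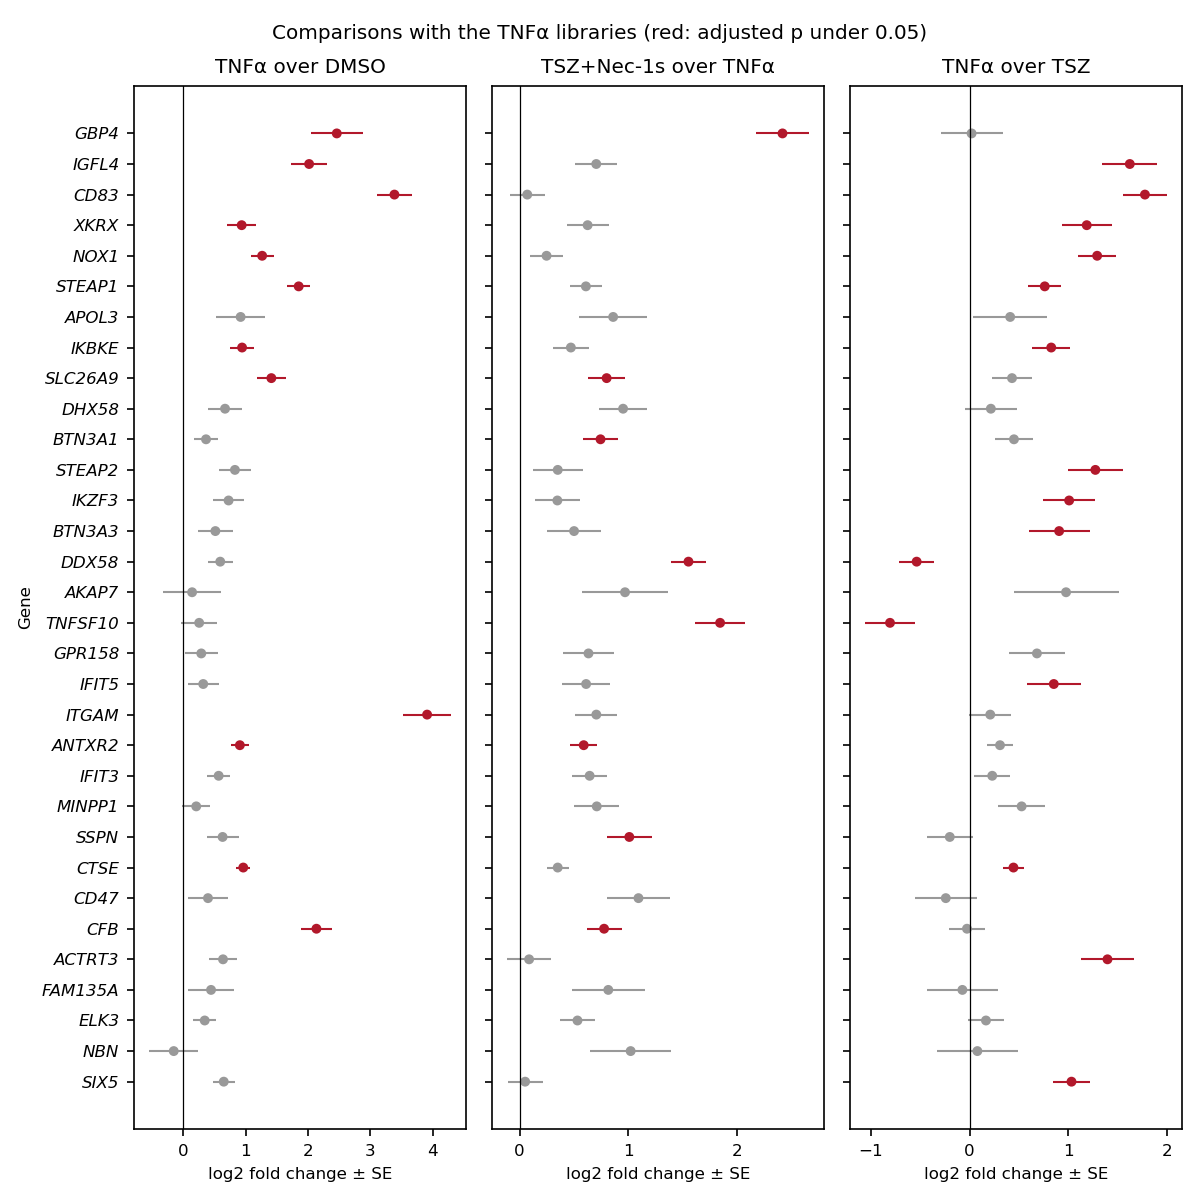
Log2 fold change ± SE (x axis) of 32 members, RMRP and RN7SK left out, in the 3 comparisons that use the TNFα libraries, from the limma fit over 12 libraries. Red points passed an adjusted p of 0.05: 12 in TNFα over DMSO, 8 in TSZ+Nec-1s over TNFα and 15 in TNFα over TSZ, of which DDX58 and TNFSF10 lie below 0.

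TNFα was also set against TSZ, which shows how the members stood when necroptosis took place. The TSZ libraries were chosen low, which favours calls of higher with TNFα. Levels of 13 members were higher with TNFα than with TSZ and those of 2 lower (limma, adjusted p under 0.05), while 21.6% of the tested genes were higher and 22.8% lower. The share of members called higher was thus above the background of a comparison in which many genes change, and the selection on TSZ bears on it. The members higher with TNFα were CD83 (log2 fold change 1.78 ± 0.22), IGFL4 (1.63 ± 0.28), ACTRT3 (1.40 ± 0.27), NOX1 (1.29 ± 0.19), STEAP2 (1.28 ± 0.28), XKRX (1.19 ± 0.26), SIX5 (1.03 ± 0.18), IKZF3 (1.01 ± 0.27), BTN3A3 (0.91 ± 0.31), IFIT5 (0.85 ± 0.28), IKBKE (0.83 ± 0.19), STEAP1 (0.76 ± 0.17) and CTSE (0.45 ± 0.11).

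DDX58, at -0.54 ± 0.18 on the log2 scale, and TNFSF10, at -0.81 ± 0.26, were lower with TNFα than with TSZ. Both calls were lost without library b of TSZ, without library c of TSZ or without library a of TNFα, and DDX58 also lost it without library b and TNFSF10 without library c of TNFα. BTN3A3 lost its call without library a or b of TNFα or library b or c of TSZ, and IFIT5 without library c of TNFα or library a or b of TSZ. The other 11 were called in all 12 fits. Scaling to the total reads of each library moved the median log2 fold change of all tested genes between TNFα and TSZ from -0.01 to 0.33. Under it 21 members were higher and 0 lower, and 77.1% of all calls were higher in place of 48.7%. Of the 11727 tested genes, 4972 were higher and 1477 lower under this scaling, in place of 2536 and 2673.

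The 3 comparisons share the TNFα libraries, so their calls are set side by side only. CD83, CTSE, IGFL4, IKBKE, NOX1, STEAP1 and XKRX, 7 in all, were higher with TNFα than with DMSO and than with TSZ. ANTXR2, CFB, GBP4 and SLC26A9 were higher with TNFα than with DMSO and higher again with TSZ+Nec-1s. BTN3A1, DDX58, SSPN and TNFSF10 were higher with TSZ+Nec-1s than with TNFα and were not called between TNFα and DMSO, but DDX58 and SSPN (adjusted p 0.0123) were called higher with TNFα than DMSO in limma with the GC trend removed, and SSPN also without the 3 libraries (adjusted p 0.0357). In the main fit, no call was made in any of the 3 for 14 members. These include DHX58, IFIT3, APOL3, CD47, NBN and both short RNAs. With the GC trend removed, CD47 (limma adjusted p 0.00678), DHX58 (0.0141) and IFIT3 (0.0289) were called higher with TSZ+Nec-1s than with TNFα. Without the 3 libraries the same genes were called, as were NBN (limma adjusted p 3.07e-10) and APOL3 (0.0406). Calls of higher over all tested genes then numbered 380 and 2585, against 127 in the main fit.

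The lists of related genes, which were drawn up with earlier results of these data known, held 10 of the members. Their counts stand beside the shares over all tested genes: 3.12% higher with TNFα than with DMSO, 1.08% higher with TSZ+Nec-1s than with TNFα, and 21.6% higher and 22.8% lower with TNFα than with TSZ. The list of interferon-stimulated genes held 6, namely IFIT3, IFIT5, DDX58, DHX58, GBP4 and APOL3, and 48 further tested genes. Of these 48, 9 were higher with TNFα than with DMSO and 0 lower (limma), with a median log2 fold change of 0.43. Between TSZ+Nec-1s and TNFα, 8 of the 48 were higher and 0 lower, with a median of 0.29 against -0.03 over all tested genes. At an unadjusted p under 0.05 the counts were 24 higher and 0 lower in the former comparison and 22 higher and 0 lower in the latter. No share over all genes was taken at that threshold, so these counts have no background to be judged against. Without weights, 11 and 6 were higher and 0 lower at the adjusted threshold. Over all tested genes, 386 and 89 were then higher at a pseudocount of 1. Between TNFα and TSZ, 4 of the 48 were higher and 19 lower, with a median of -0.33 against -0.01. IFIH1, which encodes MDA5, the sensor related to RIG-I, was at means of 56.6 with DMSO, 116 with TNFα, 201 with TSZ, against 299 with TSZ+Nec-1s. It rose by 1.37 ± 0.21 on the log2 scale between TNFα and TSZ+Nec-1s (limma adjusted p 0.0045). Its higher mean with TSZ+Nec-1s than with TSZ was not general to these 48, which leave out the 6 members selected for such a difference. As a description, the 48 genes had a median log2 fold change of -0.004 between these 2 groups, against 0.02 over all tested genes.

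IKBKE stood on the list of canonical NF-κB subunits, inhibitors and feedback genes. Of the other 17 tested genes of that list, 10 were higher with TNFα than with DMSO (limma) and 6 with TSZ+Nec-1s than with TNFα, with 0 lower in both, also at an unadjusted p under 0.05 and without weights. Without weights, 10 and 3 were higher. Between TNFα and TSZ 0 were higher, also at an unadjusted p under 0.05 and without weights, and 15 were lower, with a median log2 fold change of -1.18, whereas IKBKE was higher with TNFα, and IKBKE had been selected for a low TSZ mean. NFKBIA, the IκBα gene of this list, was at 217 with DMSO, 1429 with TNFα, 5513 with TSZ, against 1648 with TSZ+Nec-1s. TNFSF10 was the member on the list of TNF superfamily ligands and receptors. Of its other 17 tested genes, 7 were higher with TNFα than with DMSO, 1 with TSZ+Nec-1s than with TNFα and 10 lower with TNFα than with TSZ, where 1 was higher. CFB was the member on the list of acute phase, complement and mucosal defence genes, whose other 14 tested genes were higher with TNFα than with DMSO in 8 cases and lower with TNFα than with TSZ in 6. No member stood on the lists of chemokines, from which CXCL10 was absent as it was from the members although it met the conditions, or on those of antigen presentation, cytokines, adhesion, cholesterol synthesis, immediate early genes or cell cycle.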

How the data were processed

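RNA-seq of HT-29 cells was measured in 12 libraries, 3 for each of 4 treatments, grouped by their labels. Per the paper's methods and the submitters' processing notes, the authors aligned to hg38 using STAR, counted reads by gene in HTSeq irrespective of strand and normalised with DESeq. Extraction is given as Trizol in the paper and RNAiso Plus in the labels, and the library kits also differ. The 6 deposited tables each compare a pair of groups and hold the mean normalised signal of either group for 26485 gene symbols. The authors' fold changes and p-values in them were not used.

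A group mean adds 3 whole numbers of reads, each over its size factor. The reads per library were recovered where the solution was unique, for 15831 (DMSO), 15618 (TNFα), 15773 (TSZ) and 15722 (TSZ+Nec-1s) of the 15850, 15664, 15798 and 15733 genes above 0, all 36 members included. Depth was estimated from these reads and the means of the remaining genes. Library totals limit precision for low genes, such as GBP4 with 2, 1 and 2 reads with DMSO.

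Differences were tested in limma (3.58.1; R 4.3.3) on log2 reads with voom precision weights, with all 12 libraries and 4 groups together, for the 11727 genes averaging 10 reads or more, adjusted by Benjamini-Hochberg, and the script was tested on simulated data. Symbols were matched to GENCODE for coordinates, GC content and overlaps (23161 directly, 1384 under another symbol, 1940 not matched). Fold changes are log2 differences of fitted values. Promoters came from a RefSeq table of GRCh38.p14. Python 3.11.15 was used for the other steps. The members and the 22 gene lists were chosen with earlier results of these data known. Members are named, since no more than 40 met the rule, except 2 whose own results are not reported here and which stay in the counts. Other genes were named after their values were seen.

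Alternatives were other thresholds, filters and scalings, a fit without weights, the GC trend of each library removed, each library left out in turn and, added after the data were seen, 3 libraries left out for their GC trend. No set test was made.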

Additional observations from a re-analysis of the deposited data

How the results depend on the processing

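The number of genes meeting the conditions was 36 and depended on their limits: 63 at a ratio of 1.5, 17 at a ratio of 2, 71 with scaling to total reads and 387 without the 3 libraries with a GC trend (DMSO b, TNFα c, TSZ c), of which 35 were among the 36. With 1 library left out it ran from 31 to 178, the latter without DMSO b. At a mean of at least 20 or 80 it was 48 or 26, and with the GC trend removed 37.

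The members higher with TNFα than DMSO numbered 12, 19 with the GC trend removed and 10 to 13 with 1 library left out. The members higher with TSZ+Nec-1s than TNFα numbered 8, 3 without weights at a pseudocount of 1 or 5, 17 with the GC trend removed, 28 without the 3 libraries and 3 to 21 with 1 library left out. The members higher with TNFα than TSZ numbered 13, 21 with total-read scaling and 11 to 15 with 1 library left out, and the members lower numbered 2, 0 with that scaling, 1 without the 3 libraries and 0 to 2 with 1 library left out. No member was lower with TNFα than DMSO or with TSZ+Nec-1s than TNFα in limma under any alternative run. No call changed direction. Calls over all tested genes moved as well. Those higher with TNFα than DMSO numbered 366, and 863 with the GC trend removed. Those higher with TSZ+Nec-1s than TNFα numbered 127, 380 with the GC trend removed, 2585 without the 3 libraries and 47 to 668 with 1 library left out. Those higher with TNFα than TSZ numbered 2536, and 4972 with total-read scaling. The cause of these shifts was not tested.

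No paired analysis was possible because the recovered libraries carry no replicate number. A mean near 10 reads rests on few reads per library, which limits what can be seen for low genes such as GBP4 with DMSO.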
